A study of Danio rerio with 19 samples.

Results

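The amplicon described here is the only sequenced region on zebrafish chromosome 18, the chromosome of cyp19a1a. Its members were the cytosine positions from 39636122 to 39636564 of GRCz11 that had 10 or more reads in at least 5 ovaries and at least 5 testes. This gave 18 of the 150 positions tested in the series. Gonads of 19 AB-strain zebrafish were assayed for DNA methylation by sequencing of PCR products from bisulfite-converted DNA. The groups were 9 ovaries and 10 testes, from laboratory fish aged 90 days that had been reared under control conditions. Each fish gave 1 library. Per the series title, the study concerned sex differences in gonad methylation at other genes, il1b and casp9.

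cyp19a1a encodes gonadal aromatase, the cytochrome P450 enzyme that converts androgens into estrogens. In the teleost ovary the enzyme is made mainly by follicle cells and is needed for ovarian development and its maintenance. Zebrafish carry a second aromatase gene, cyp19a1b, which is best known from the brain. Methylated cytosines in CpG dinucleotides resist bisulfite, whereas unmethylated ones are converted and read as T, so the share of reads with C gives the methylation level of a CpG. A gonad contains germ cells and several somatic cell types, and an intermediate level in bulk DNA cannot tell a share of fully methylated cells from partial methylation in each cell.

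The link to cyp19a1a rests on the chromosome. The RefSeq gene table places cyp19a1a (gene ID 30390) on chromosome 18, in another assembly (GRCz12tu), together with 846 other protein-coding genes. Whether the amplicon lies in a promoter, exon or intron of cyp19a1a was therefore not determined here, and no sequence is shown.

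The 18 positions fell into 15 that carried nearly all calls and 3 that carried very few. A read gives 1 call at each position it covers, so it is counted at several CpGs. The 15 CpGs held 99.9% of the 3785196 calls in the range, with a median over fish of 14099 to 14155 reads at each. They span 384 bp, from 39636145 to 39636529, and neighbouring CpGs lie between 3 and 106 bp apart. The other 3 positions, 39636122, 39636133 and 39636564, had a median over fish of 29 to 48 reads. Their mean level was 0% in ovaries, against at most 0.133% in testes, from 5 to 7 ovaries and 10 testes with enough reads. Only 1 of their 2299 calls was methylated. They had few calls beside deeply read CpGs. Over all fish 39636133 had 588 calls and the nearest well covered CpG, 39636145, had 252250. Why these positions gave so few calls, and whether they are CpGs in these fish, was not tested. A further 32 positions in the range did not reach the read minimum and had at most 30 reads in any fish. The member nearest to that limit, 39636133, had 10 reads in 5 ovaries and 10 testes, and the best covered position outside it, 39636345, in 2 ovaries and 8 testes. Amplicon values below are means over the 15 well covered CpGs.

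Ovaries were far less methylated than testes at every one of the 15 CpGs. Over the amplicon, ovaries averaged 37.5% ± 10.6 (SD, n = 9) and testes 95.9% ± 0.894 (SD, n = 10). The lowest, median and highest values were 24.1%, 36.6% and 55.3% in ovaries, against 93.5%, 96.2% and 96.7% in testes. No ovary came near the testis range, and the highest ovary stood well below the lowest testis. The difference of -58.5 points had an exact permutation p of 1.08e-05 (two-sided, adjusted p = 2.44e-05 over 9 regions), the smallest that 9 against 10 fish can give.

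**Figure D1:**
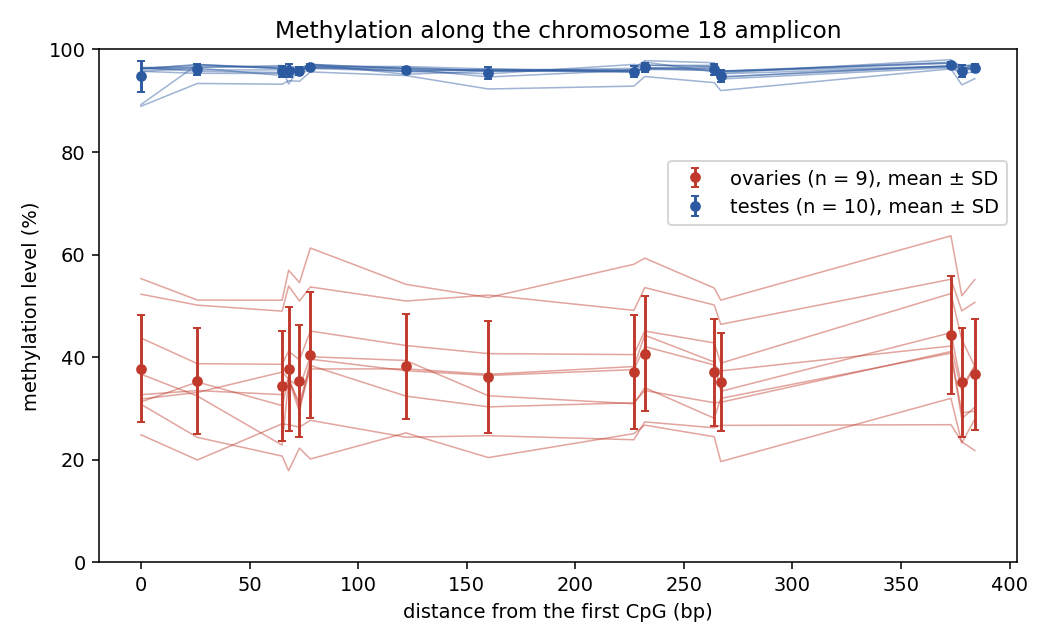
Methylation level in percent against distance in bp from the first of the 15 well covered CpGs. Thin lines are single fish, and points with bars are the mean and SD of 9 ovaries and 10 testes; ovaries run between 17.9% and 63.7% and testes between 88.9% and 98.0%.

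All 15 CpGs were lower in ovaries by the exact permutation test adjusted over the 150 positions of the series, where 23.3% of positions were lower in ovaries and 47.3% differed in either direction. At all 15, every ovary lay below every testis, which held for 18.7% of the 150 positions, these 15 included. It also held at 8 of 9 well covered CpGs of the chromosome 10 amplicon and 5 of 7 of the chromosome 19 amplicon. The median difference was -59.0 points over the 15 CpGs, against -0.0401 over all 150. Each of the 15 had an adjusted p of 4.92e-05, so the test does not rank them. The mean level over fish ran from 34.4% to 44.3% in ovaries and from 94.8% to 97.0% in testes. None of the 3 sparsely read positions passed in this test; on the log-odds scale 39636122 passed in the other direction (difference 0.720, exact permutation, adjusted p = 0.0435). At so few reads a count of 0 allows a level of up to 28.5% with 11 reads (ovary 18 at 39636133). With 103 reads (testis 12 at 39636122) it allows up to 3.52%, both as upper ends of the exact 95% interval.

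CpG 39636210 had the lowest mean in ovaries and the widest difference. Ovaries stood at 34.4% ± 10.7 (SD, n = 9) and testes at 95.7% ± 1.07 (SD, n = 10), a difference of -61.3 points. The lowest, median and highest ovary were at 20.7%, 32.7% and 51.1%, against 93.2%, 96.1% and 96.9% in testes. Other CpGs came close: the ovary mean was 35.1% at 39636523 and 35.2% at 39636412, and the difference -60.7 points at 39636171. Ovary 15 was at 22.9% at 39636210, against an amplicon mean of 32.4%, so these ranks lean on this 1 fish. CpG 39636210 was the lowest CpG in 2 of 9 ovaries. This site lay below the amplicon mean of its fish in 7 of 9 ovaries and 7 of 10 testes, by an average of -3.04 points in ovaries and -0.165 in testes. It was named for its lowest ovary mean in these same fish, a choice that favours a place below that mean. Several other CpGs lay below in as many ovaries, and 39636523 in 8 of 9.

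The narrowest difference was at 39636518, which was the most methylated CpG of the amplicon in both sexes. There, ovaries averaged 44.3% ± 11.4 (SD, n = 9) and testes 96.99% ± 0.547 (SD, n = 10), a difference of -52.7 points. The lowest, median and highest values were 26.8%, 42.2% and 63.7% in ovaries, against 96.2%, 96.8% and 98.0% in testes. Here too the sexes were far apart.

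At the ends of the amplicon the picture was the same. At the first CpG, 39636145, ovaries averaged 37.7% ± 10.4 (SD, n = 9) and testes 94.8% ± 2.9996 (SD, n = 10). Among testes its level was split: testes 12 and 14 were at 89.3% and 88.9%, and the other 8 lay between 95.7% and 96.5%. At the last CpG, 39636529, ovaries averaged 36.7% ± 10.8 (SD, n = 9) and testes 96.4% ± 0.868 (SD, n = 10).

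Over the well covered CpGs, the slope along the amplicon was not found to differ between the sexes. Whether the slope departs from flat within a sex was not tested. The slope of level on position averaged, per 100 bp, 0.456 ± 0.800 points (SD, n = 9) for ovaries and 0.163 ± 0.207 (SD, n = 10) for testes. It was negative in 4 of 9 ovaries and 2 of 10 testes. The difference in slope of 0.293 did not pass the threshold (exact permutation p = 0.281, adjusted p = 0.361 over 9 regions). It was 0.144 without ovary 17, 0.187 without ovary 5 and 0.444 without ovary 1, and the adjusted p (exact permutation) ranged from 0.111 to 0.629 over all fish left out in turn. With the 3 sparsely read positions kept, the slopes were 1.31 in ovaries and 3.46 in testes (difference -2.15, exact permutation, adjusted p = 9.74e-05).

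Within a fish the SD of the level over CpGs was a few points at most, and larger in ovaries than in testes when measured in percent. From lowest to highest CpG, an ovary ranged over 12.9 points on average, and ovary 15 over 18.3 points. The SD over the 15 CpGs averaged 3.59 points ± 0.781 (SD, n = 9) for ovaries and 0.876 points ± 0.531 (SD, n = 10) for testes. It ran from 2.22 (ovary 6) to 4.32 (ovary 15) and from 0.493 (testis 19) to 1.98 (testis 12), so the sexes did not overlap. The exact permutation p was 1.08e-05 (adjusted p = 2.44e-05 over 9 regions). On the log-odds scale the order turned, with an SD of 0.162 in ovaries and 0.207 in testes (difference -0.0445, exact permutation, adjusted p = 0.150). The SD expected from read counting alone was 0.381 to 1.97 points in ovaries and 0.118 to 0.211 in testes, below the SD seen in each fish. In percent, the SD was also larger in ovaries in every other region but the chromosome 19 one. All of these passed but the chromosome 3 one (exact permutation, adjusted p = 0.0579). On chromosome 19 the SD was smaller in ovaries, at 30.5 against 36.2 points (exact permutation, adjusted p = 2.44e-05).

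Some CpGs departed from the mean of their fish in the same direction in most or all fish. CpG 39636518 was the highest of the 15 CpGs in 8 of 9 ovaries and in 4 of 10 testes. It exceeded the fish's own amplicon mean in every fish, by 6.88 points ± 2.69 (SD, n = 9) for ovaries and by 1.08 points ± 0.681 (SD, n = 10) for testes. CpG 39636377 also stood above the own mean in all 9 ovaries, by 3.22 points ± 2.21 (SD, n = 9), and in 7 of 10 testes. Next to 39636518, only 5 bp away, 39636523 was lower in every fish, by a mean of -9.22 points ± 3.02 (SD, n = 9) for ovaries and -1.17 points ± 0.858 (SD, n = 10) for testes. CpGs 39636372 and 39636377, also 5 bp apart, differed by 3.497 points ± 1.58 (SD, n = 9) in ovaries, the second being higher in 9 of 9. Among testes their difference was 0.838 points ± 0.651 (SD, n = 10). CpG 39636518 was named for its highest mean in these same fish, a choice that favours a place above the own mean. CpGs 39636377, 39636372 and 39636523 were singled out after their values had been seen. No test was run on these departures and steps.

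**Figure D2:**
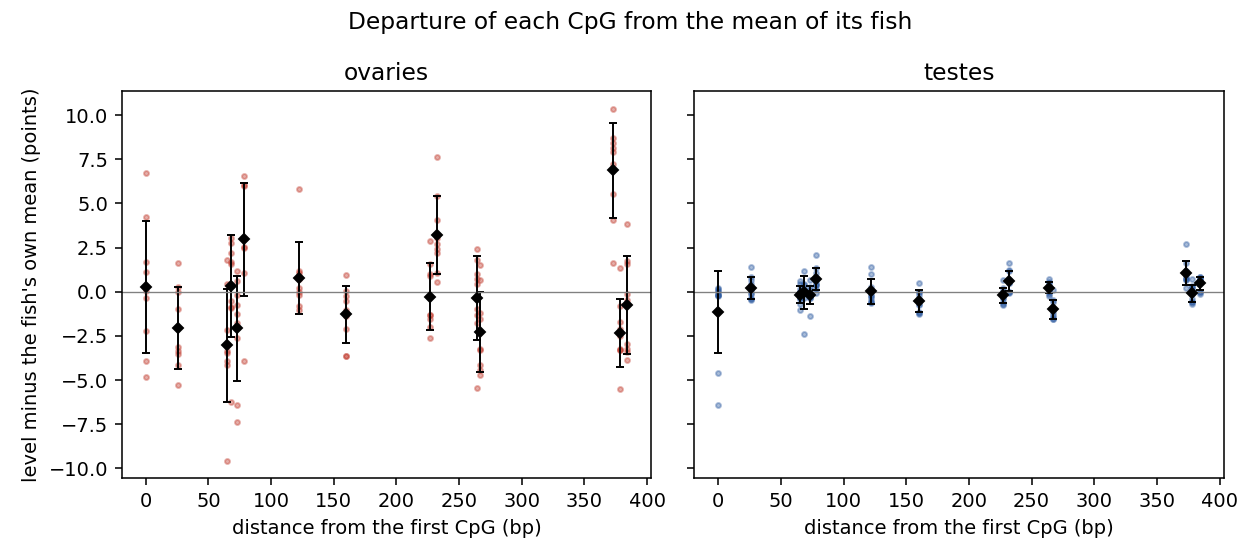
Level of each CpG minus the mean of the same fish over the 15 CpGs, in percentage points, against distance in bp from the first CpG, for ovaries (left, n = 9) and testes (right, n = 10). Dots are fish and black points with bars the mean and SD; 39636518 lies above 0 in every fish, by 6.88 points in ovaries and 1.08 in testes.

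Ovaries differed widely from one another, and the top and bottom of their order held along the amplicon while the middle shifted. In rising order, ovary 18 stood at 24.1%, ovary 6 at 25.2%, ovary 15 at 32.4%, ovary 1 at 33.5%, and ovaries 17 and 5 at 36.6% and 36.7%. Ovaries 2, 11 and 13 followed with 42.1%, 51.2% and 55.3%. The widest step between neighbours in this order, 9.08 points, lay between ovaries 2 and 11. Ovary 13 was the highest of the 9 at 14 of the 15 CpGs and ovary 11 at the remaining one. Ovary 18 was the lowest at 9 CpGs and ovary 6 at the other 6. Between these, ovary 15 ranked from 4 to 8, counted from the highest, and ovary 17 from 3 to 7.

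**Figure D3:**
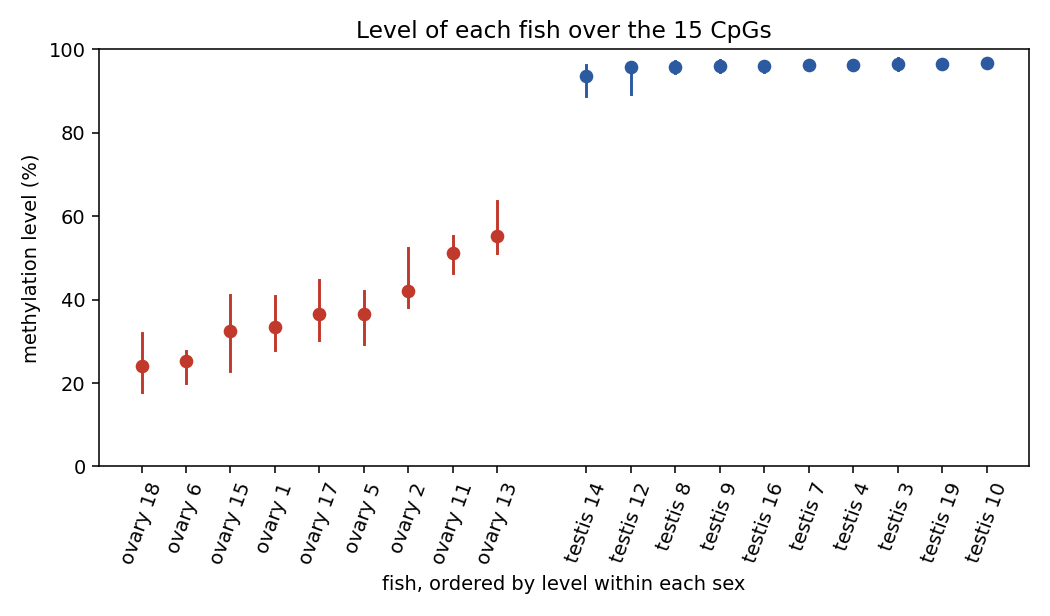
Mean methylation level in percent over the 15 CpGs for each fish (point), with the lowest and highest single CpG of that fish (bar); ovaries are on the left and testes on the right, each in rising order. Ovaries spread from 24.1% to 55.3% and testes from 93.5% to 96.7%.

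Differences between fish made up 88.8% of the sum of squares of the ovary levels, differences between CpGs 5.82% and the remainder 5.36%. In testes the shares were 43.0%, 20.2% and 36.8%. Over the 9 ovaries, the levels at any pair of CpGs had a Pearson r of 0.842 to 0.991 (median 0.946, 105 pairs). Over the 10 testes it ran from -0.00325 to 0.941 (median 0.679). These are descriptions, since the CpGs of a fish come from the same library and lie on the same PCR product. Kendall's coefficient of concordance of the fish's ranks over the 15 CpGs was 0.92 in ovaries and 0.427 in testes.

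In percent, ovaries were more spread than testes. The mean absolute deviation from the own sex's median was 7.77 points for ovaries and 0.504 for testes (two-sided exact permutation p = 0.000974, adjusted p = 0.00628 over 9 regions). The deviations were fixed before the permutation, so each p of spread is approximate. Without testis 14 the testis value was 0.261 (exact permutation, adjusted p = 0.0126). At single CpGs the SD between ovaries ran from 9.62 to 12.3 points, against 0.464 to 2.9996 points between testes. On the log-odds scale, which stretches values near 100%, the call was lost, with mean deviations of 0.341 in ovaries and 0.113 in testes (exact permutation, adjusted p = 0.176). In ovaries the exact 95% interval at a CpG was always narrower than the SD between fish. In testes the widest such interval exceeded the smallest SD, but a full interval width is several times a standard error. The SD expected from read counting alone was 0.118 to 0.211 points in testes, below the smallest SD between testes at a CpG. The exact (Clopper-Pearson) 95% interval at a CpG had a width between 1.35 points (ovary 15) and 8.01 points (ovary 2) in ovaries and between 0.379 (testis 10) and 0.908 points (testis 7) in testes. Such intervals cover counting error only, since PCR reads are not independent molecules. In the chromosome 19 amplicon ovaries were also more spread, at 2.62 points against 0.392 in testes (exact permutation, adjusted p = 0.00628 over 9 regions). In the chromosome 10 amplicon the values were 4.01 and 3.02 points (exact permutation, adjusted p = 0.596).

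The amplicon was also read less deeply in ovaries. The median number of reads per CpG had a lowest, median and highest value of 623, 5349 and 14941 in ovaries, against 8233, 20141 and 27408 in testes. Geometric means were 4460 and 18403 reads, a ratio of 0.242 (exact permutation p = 0.000238, adjusted p = 0.00214 over 9 regions). The chromosome 19 amplicon had a similar ratio, 0.248 (exact permutation, adjusted p = 0.00736 over 9 regions), and the chromosome 10 amplicon one of 0.992. The chromosome 18 amplicon took 1.91% to 11.8% of all calls of a fish in ovaries and 8.45% to 34.3% in testes. Total calls per fish ranged from 488594 to 2235082 in ovaries and from 786467 to 1718107 in testes. Only 3 ovaries and 2 testes had a coverage within the range that both sexes shared. These 3 ovaries stood at 32.4% to 51.2% and the 2 testes at 96.2% to 96.4%, and with 5 fish no p under 0.1 can be reached. The part of coverage in the difference between the sexes was not tested beyond this comparison.

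**Figure D4:**
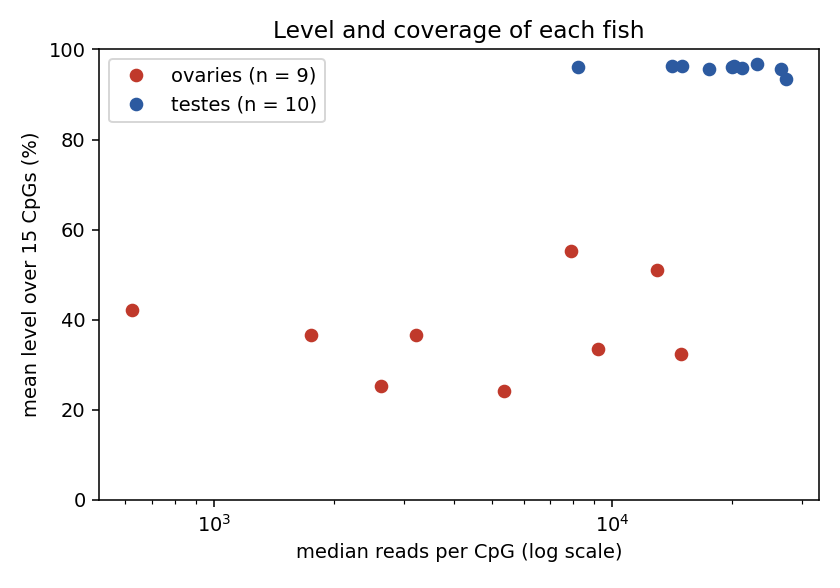
Mean methylation level in percent over the 15 CpGs against the median reads per CpG (log axis), 1 point per fish, for 9 ovaries and 10 testes. Ovaries lie between 623 and 14941 reads and testes between 8233 and 27408, and the levels of the sexes stay apart where the coverages overlap.

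Within a sex, the level of the amplicon was not found to follow its coverage or the level of another amplicon. In ovaries the relation to log10 coverage had r = 0.134 (exact permutation p = 0.732) and rho = -0.0333 (exact permutation p = 0.948), and r = 0.451 once the 2 fish with the most extreme coverage were left out. In testes it had r = -0.439 (permutation p = 0.160) and rho = -0.467 (permutation p = 0.181), with r = -0.565 without 2 such fish. Of the other amplicons, the one most like it over the 9 ovaries was the first chromosome 5 amplicon, with r = 0.606 (exact permutation p = 0.0877) and rho = 0.450 (exact permutation p = 0.230), and r = 0.489 without 2 fish. In that amplicon ovaries 1, 6 and 18 stood at 2.87%, 3.95% and 6.44%, and the other ovaries between 33.4% and 48.1%. There, 11 of 171 pairs of fish, 2 of them both ovaries, had counts within sampling noise of each other. Ovaries 2 and 5, with a median of only 165 and 93 reads per CpG there, were such a pair. Whether the fish of these pairs share an origin was not tested. The next largest r in size, of negative sign, was that with the chromosome 10 amplicon, on the chromosome of il1b. This relation had r = -0.474 (exact permutation p = 0.197) and rho = -0.500 (exact permutation p = 0.178), and r = -0.503 without 2 fish. None of the 18 relations had an unadjusted p under 0.05, and the lowest adjusted p was 0.5996. In testes the relation to the chromosome 10 amplicon had r = 0.544 (permutation p = 0.124) and rho = 0.467 (permutation p = 0.180). Without 2 fish r was 0.713 (exact permutation p = 0.0289, adjusted p = 0.497 over 18 relations). With 6 to 10 fish a moderate relation could be missed.

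Set beside the chromosome 10 and 19 amplicons, which were also less methylated in ovaries, the chromosome 18 one had a wider difference between the sexes and a more even profile within an ovary. The sex difference was wider on chromosome 18 than on chromosome 10, at -58.5 against -27.9 points (difference of -30.5 points, exact permutation p = 2.17e-05, adjusted p = 2.17e-05 over 2 comparisons). The counts of testes 9 and 19 on chromosome 10 differed by less than sampling noise (chi-square per CpG 0.423). With this pair taken as 1 sample the value was -30.3 points (exact permutation p = 8.23e-05). Against the chromosome 19 amplicon, at -16.8 points, the difference was -41.7 points (exact permutation p = 1.08e-05, adjusted p = 2.17e-05).

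The single CpGs show how the profiles differ in shape. On chromosome 18 the sex differences lay between -61.3 and -52.7 points over 15 CpGs, on chromosome 10 between -50.4 and -0.964 over 9 CpGs, and on chromosome 19 between -40.9 and 2.47 over 7 CpGs. Within an ovary, the SD over CpGs was 3.59 points ± 0.781 (SD, n = 9) on chromosome 18, against 16.1 ± 1.96 (SD, n = 9) on chromosome 10 and 30.5 ± 2.39 (SD, n = 9) on chromosome 19. It was smaller on chromosome 18 in all 9 ovaries in both comparisons (exact sign-flip permutation p = 0.00391 each, the smallest that 9 fish can give). On chromosome 19 the mean difference of -26.9 points shrank to -10.4 points without its 1 CpG below 10% in both sexes, with the same p.

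**Figure D5:**
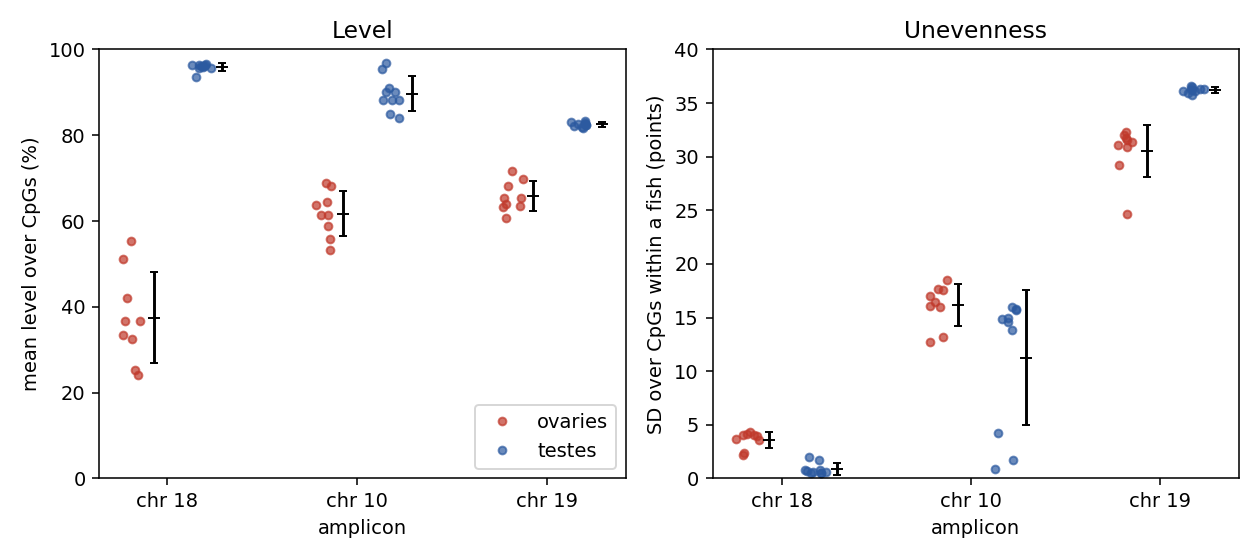
Mean level over CpGs in percent (left) and SD over the CpGs within a fish in points (right) for the amplicons on chromosomes 18, 10 and 19. Dots are fish, ovaries left of testes in each amplicon, and black bars the mean ± SD; on chromosome 18 the ovary SD averages 3.59 points, against 16.1 on chromosome 10 and 30.5 on chromosome 19.

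No pair of the 19 fish agreed within sampling noise in the chromosome 18 amplicon. The closest were ovaries 5 and 17, with a chi-square per CpG of 1.77 (chi-square p = 0.0331) and a root mean square difference of 1.89 points. The closest testes were testes 4 and 7, at 2.11. This comparison covers counting error only and does not show that fish are independent. Each fish was counted as 1 sample, as labelled.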

How the data were processed

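DNA of ovaries (n = 9) and testes (n = 10) was bisulfite-converted (1000 ng per fish, per the labels' protocols) and sequenced as amplicons. Per the submitters' processing notes, the tools were Bismark, Bowtie2, FastQC 0.11.6 and Trim Galore 0.4.5, with the build GRCz11. For each fish and position the deposited files hold counts of methylated and unmethylated reads without normalization. The percent methylated was computed by the authors and equals the share given by the deposited counts in each of 4476 values. A coverage filter or conversion control is not given in the sources used here.

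Positions with 10 or more reads in at least 5 fish of each sex were kept (150 of 470), and positions less than 1000 bp apart formed 9 regions. A fish entered a region with 50% of its CpGs. Positions under 10% of the region's median coverage were left out of region means. Per CpG, the difference between ovaries and testes in the beta-binomial (Williams) weighted mean was tested by two-sided exact permutation over up to 92378 splits, with Benjamini-Hochberg adjustment over 150 positions and a threshold of 0.05. The weights used an overdispersion estimated without regard to sex. Region measures were tested likewise and adjusted over 9 regions. For spread, the medians were those of the labelled sexes and were not recomputed in each split, so its p is approximate. Correlations used exact permutation, or 100000 resamples with 10 fish. Log-odds were natural logarithms with 0.5 added to each count, and limma used log2. The CpG test was also run on simulated data with levels in the middle of the scale, unlike those of testes here, and the outcome is not reported here. Fish are numbered by their titles. A permutation p of a sex difference is the share of splits with a difference at least as large as that seen. It treats the fish as independent, and whether fish shared a clutch or tank is not given. The named positions are the CpGs at the ends and with extreme means or differences, and the 3 sparsely read positions. The amplicon, tests and lists were chosen with earlier results of these data known. Software was limma 3.58.1 in R 4.3.3, and scipy 1.17.1, numpy 2.4.6, matplotlib 3.10.9 and pandas 2.3.3 in Python 3.11.15.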

Additional observations from a re-analysis of the deposited data

Results flagged for a closer look

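Testis 14 stood apart from the other testes by Dixon's test in 9 of 38 sets of values, and no other fish was flagged. Chance would flag about 1 set in 20, and the CpGs of a fish are not independent. Its amplicon mean was 93.5%, with the next testis at 95.7%. Single CpGs at which it lay apart were 39636171 (93.4%), 39636218 (93.8%), 39636305 (92.3%) and 39636372 (92.9%). The same held at 39636409 (93.5%), 39636412 (91.99%), 39636523 (93.1%) and 39636529 (94.3%). Testis 14 was the lowest testis at 14 of the 15 CpGs, and it had the highest coverage of the amplicon, with a median of 27408 reads per CpG, and the highest share of its calls there, 34.3%. The part of coverage in its level was not tested. Without this fish the testis mean was 96.2% and the difference between ovaries and testes -58.7 points (exact permutation, adjusted p = 9.26e-05). Dixon's test takes the gap to the nearest value, so 2 low fish can hide each other. At 39636145 testes 12 and 14 were at 89.3% and 88.9%, and neither was flagged. Testis 12 also had the largest SD over CpGs among testes, 1.98 points.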

How the results depend on the processing

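All 15 CpGs remained lower in ovaries under each of the 8 other settings and without each fish in turn. The counts over all 150 positions were 71 as reported, 44 with fish weighted by coverage and 39 with Bonferroni adjustment. The amplicon difference ran from -60.7 to -56.8 points without single fish, and among fish of shared coverage it was -57.3 points, where the exact permutation p of 0.1 is the smallest possible. Spread between fish ran from 5.91 to 8.23 points without single fish (highest adjusted p = 0.0178 by exact permutation) and lost its call on the log-odds scale (0.228). Unevenness reversed on the log-odds scale (-0.0445) and with the 3 sparsely read positions kept (-25.2 points, since positions at 0% widen the range most in testes). The gradient reversed in the same settings (-0.0167, and -2.15 with a call, adjusted p = 9.74e-05 by exact permutation), and ran from 0.144 to 0.444 without single fish. At 39636122, which has 1 methylated read, the sign turned and a call was gained on the log-odds scale (0.720, adjusted p = 0.0435 by exact permutation) and with limma (1.04, adjusted p = 0.0389), where adding 0.5 to each count raises fish with fewer reads. No paired analysis was possible because ovaries and testes share no replicate numbers. Depth limits mainly ovary 2 (623 reads). The 3 sparse positions had few calls although the CpGs beside them were read deeply.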

Other observations

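The 32 positions left out for low read numbers held 751 calls in all fish together, of which 6 were methylated. Of these positions 3 lie 1 base after one of the 15 well covered CpGs, and they held 15 calls with 5 of the 6 methylated ones. Outside the range, chromosome 18 had 2 further positions with 14 calls in all.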
